A study of Mus musculus with 9 samples.

Results

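Alox15, Acod1, Calca and Hdc are 4 genes known to respond to progesterone in uterine epithelium before implantation, and they were followed by their symbols through a deposited table of 15158 genes. All 4 had a row, and all 4 passed the filter on low values that left 12347 genes. RNA came from laser-captured luminal epithelium, the cell layer lining the uterine cavity, of mated female mice raised to 8 weeks of age and dissected on pregnancy day 4. There were 3 genotypes with 3 libraries each. The ePRBoe mice (Wnt7acre/+PgrBLsL/+) were made to overexpress isoform B of the progesterone receptor in epithelium, the ePRAoe mice (Wnt7acre/+PgrALsL/+) isoform A, and the Wnt7acre mice carried the cre recombinase alone. All 9 libraries thus came from animals with the Wnt7acre allele, whose cre is made where Wnt7a is expressed. The promoter that drives the PgrALsL and PgrBLsL alleles was not stated in the labels. The labels number the bioreplicates without naming animals, so p-values measure the spread between these libraries.

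Progesterone prepares the uterus for the embryo by binding its receptor, a transcription factor that one gene makes in a longer form, B, and a shorter form, A. On the day before attachment the mouse luminal epithelium stops dividing and switches on a set of enzymes and secreted factors. Alox15 encodes a lipoxygenase that adds oxygen to arachidonic and linoleic acid. Acod1, also called Irg1, encodes the mitochondrial enzyme that makes itaconate from a citrate cycle intermediate and is best known from activated macrophages. Hdc encodes histidine decarboxylase, the enzyme that makes histamine. Calca encodes calcitonin and, by alternative splicing, the calcitonin gene-related peptide. In rats, calcitonin is known as a progesterone-induced product of the uterine epithelium before implantation.

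In mm10 (GENCODE M21), Alox15 (ENSMUSG00000018924.6) lies on chromosome 11 from 70344152 to 70352031 on the reverse strand, and Acod1 (ENSMUSG00000022126.6) on chromosome 14 from 103046977 to 103056573 on the forward strand. Calca (ENSMUSG00000030669.13) lies on chromosome 7 from 114631478 to 114636357 and Hdc (ENSMUSG00000027360.5) on chromosome 2 from 126593667 to 126619299, both on the reverse strand. All 4 are protein-coding genes. Calca has 6 protein-coding transcripts in that annotation, and the deposited values are per gene, so calcitonin and gene-related peptide messages were not told apart. Promoter sequences (RefSeq, GRCm38.p6) matched 3 of the 4 members, all but Alox15. The 250 bases before the start are shown for Calca (chr7:114636358-114636607, reverse strand) and Hdc (chr2:126618679-126618928, reverse strand), because one was called with isoform B and the other with isoform A. The RefSeq start of Hdc lies inside the GENCODE span of the gene. Both are printed 5′ to 3′ in the direction of transcription, with matches to 2 motifs in capitals:
Calca: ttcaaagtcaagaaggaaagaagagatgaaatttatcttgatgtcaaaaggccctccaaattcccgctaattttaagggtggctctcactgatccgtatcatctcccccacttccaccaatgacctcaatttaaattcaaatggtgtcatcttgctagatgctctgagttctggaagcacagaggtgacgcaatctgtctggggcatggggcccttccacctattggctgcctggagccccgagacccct
Hdc: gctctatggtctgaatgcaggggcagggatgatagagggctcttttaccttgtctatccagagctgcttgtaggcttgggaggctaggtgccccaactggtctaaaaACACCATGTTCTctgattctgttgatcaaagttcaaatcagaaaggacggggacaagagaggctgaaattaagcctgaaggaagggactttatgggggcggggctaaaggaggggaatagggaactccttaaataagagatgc
The motifs were ACANNNTGT, the core of the palindrome that progesterone receptors are known to bind, which reads the same on both strands, and the shorter AGAACA, searched on both strands. The Hdc window held ACACCATGT, starting 143 bases before the start, and TGTTCT, a match to the shorter motif on the opposite strand, starting 137 bases before it. These matches overlap by 3 bases. The Calca and Acod1 windows held no match to either motif, which says only that these letters are not in these 250 bases. Of 32851 promoter windows of the same length, 5.84% held the core, 16.1% the shorter motif and 1.49% both.

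The captures carried the epithelial markers that the label calls for. The 18 luminal epithelium markers summed to 2522 to 2723 FPKM in ePRBoe, 2146 to 3090 in ePRAoe and 2404 to 2808 in Wnt7acre, where FPKM is a read count scaled to gene length and sequencing depth. Single markers of this list did differ from Wnt7acre (limma, adjusted p under 0.05). In ePRAoe 6 were called higher and 3 lower, and in ePRBoe 3 higher and 1 lower. Over all genes tested 16.2% and 8.89% were called. Pgr, the targeted gene, averaged 40.8 ± 4.48 FPKM in ePRBoe, 44.7 ± 4.19 in ePRAoe and 9.28 ± 7.17 in Wnt7acre (SD, n = 3 each). The 18 stroma markers summed to 465 to 606 FPKM in ePRBoe, 261 to 442 in ePRAoe and 116 to 159 in Wnt7acre, so these markers moved with genotype, and their part in the results was not tested. In bulk RNA, fewer cells of a type and less RNA per cell cannot be told apart. Wnt7acre replicate 1 stood apart from the other Wnt7acre libraries. Its 6 neutrophil markers in the table summed to 174 FPKM against 11.9 and 32.4 in replicates 2 and 3, and its 15 macrophage and dendritic cell markers to 391 against 181 and 184. By the prefix and date stamp in the labels, from which the runs were inferred, it was sequenced with ePRAoe replicate 1 in run 3. Run 2 held ePRAoe replicate 3 and Wnt7acre replicate 2, and run 1 held all ePRBoe libraries, ePRAoe replicate 2 and Wnt7acre replicate 3. Each library's values added up to 272213 to 314010 FPKM, and the read numbers behind them are unknown.

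**Figure D1:**
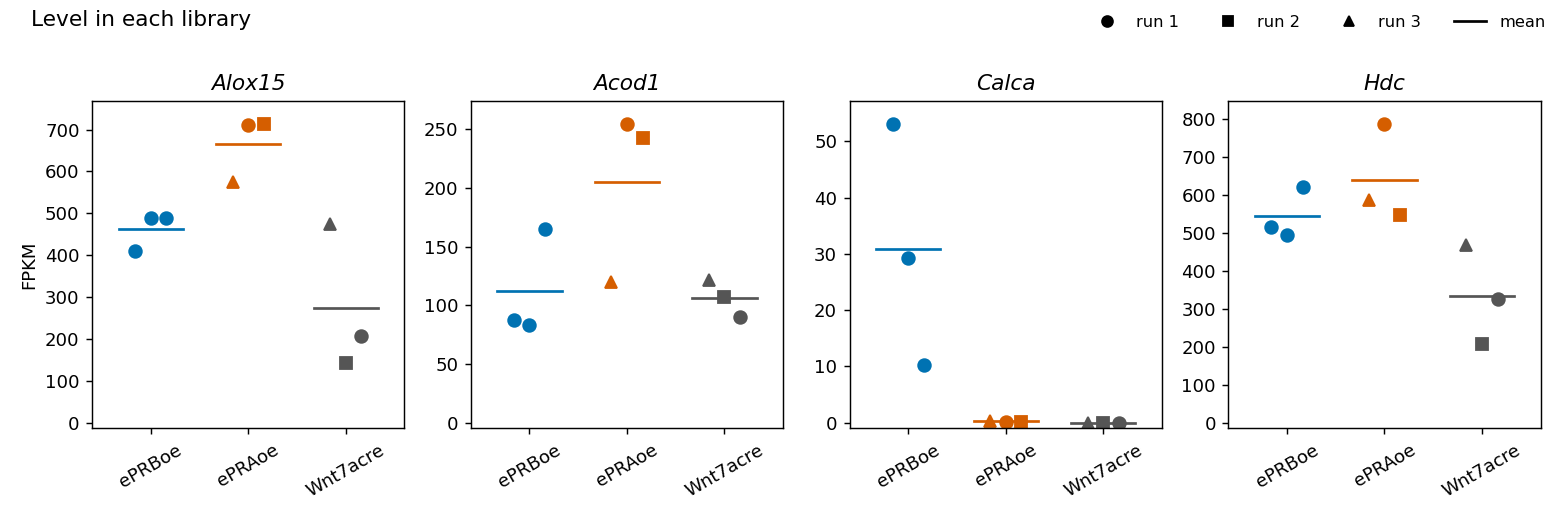
FPKM of Alox15, Acod1, Calca and Hdc in each library, by genotype on the horizontal axis. Points are libraries, symbols the sequencing runs and bars the group means. Calca was above 10 FPKM in the 3 ePRBoe libraries and at 0.302 FPKM or less in the other 6.

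Calca separated the isoforms. It was at 53.0, 29.3 and 10.2 FPKM in ePRBoe replicates 1 to 3, at 0.302, 0.151 and 0.151 FPKM in ePRAoe, and listed at 0 in all 3 Wnt7acre libraries. The ePRBoe libraries did not overlap with any other, and the lowest of them was 33.8 times the highest ePRAoe library. They were spread widely, with the highest 5.20 times the lowest. The ePRAoe values were 2, 1 and 1 times the smallest value above 0 in the Calca row, which places them at the limit of what the table records. Calca passed the filter of 1 FPKM in 3 libraries only through ePRBoe, and it had to be high there to be tested at all.

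Calca was called higher in ePRBoe than in Wnt7acre (limma on log2(FPKM + 1), adjusted p = 0.00765), as were 6.41% of the 12347 genes tested. It was also called higher in ePRBoe than in ePRAoe (adjusted p = 0.0390), a call made for 0.316% of genes. Since the ePRBoe libraries brought Calca into the test, nothing is read from these shares, and with no filter the adjusted p against ePRAoe was 0.0541. Calca did not pass in ePRAoe against Wnt7acre (adjusted p = 0.765). No fold is given against a group listed at 0. An exact permutation test, two-sided, returned p = 0.1 for Calca in each of the 3 comparisons, which is the lowest value open to 20 regroupings. In run 1 alone, which holds all 3 ePRBoe libraries, the ePRAoe library stood at 0.151 FPKM and the Wnt7acre library at 0. The call against ePRAoe did not survive leaving out Wnt7acre replicate 2 or 3, ePRAoe replicate 2 or 3, or, with the filter removed, ePRBoe replicate 1 or 2 (adjusted p = 0.0801 to 0.5). The call against Wnt7acre was lost without Wnt7acre replicate 3 (adjusted p = 0.0805) and kept without any other Wnt7acre or ePRAoe library. Without an ePRBoe library Calca missed the filter. With the filter removed, its adjusted p against Wnt7acre was then 0.0120 to 0.0394. These values are given as a description, since the ePRBoe libraries brought Calca into the test.

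Uterine glands are the other epithelium that a capture could hold. The 10 gland markers summed to 194 to 305 FPKM in ePRBoe, 114 to 186 in ePRAoe and 245 to 366 in Wnt7acre. Foxa2, the transcription factor that marks glands, was at 0.16 to 1.28 FPKM in ePRBoe, 0.032 to 0.417 in ePRAoe and 0.064 to 1.22 in Wnt7acre. The 4 gland markers that were tested had a median log2 difference of 0.26 in ePRBoe against Wnt7acre and of 1.54 in ePRBoe against ePRAoe, with 0 called in either (limma) and 1 and 3 at an unadjusted p under 0.05. The part of gland cells in the Calca values was not tested. Prss29, a gland-secreted serine protease, is 1 of the 10 gland markers and was picked after its values were seen. It was at 25.6 FPKM in ePRBoe replicate 1, the library with the most Calca, against 0.451 and 0.515 in ePRBoe replicates 2 and 3. Calca was at 29.3 and 10.2 FPKM in replicates 2 and 3. The gland markers summed to 305 FPKM in ePRBoe replicate 1 and to 196 and 194 in replicates 2 and 3. In Wnt7acre, where they summed to 245 to 366, Calca was listed at 0. These values are given as a description.

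Alox15 varied most among the Wnt7acre libraries and little within the other genotypes. It stood at 410.0, 488 and 489 FPKM in ePRBoe replicates 1 to 3, 574, 710.4 and 712 FPKM in ePRAoe, and 473, 141 and 207 in Wnt7acre. Every ePRAoe library was above every library of the other genotypes, while ePRBoe overlapped with Wnt7acre through Wnt7acre replicate 1. Among the 15158 genes Alox15 ranked 33rd to 64th in ePRBoe, 6th to 25th in ePRAoe and 39th to 341st in Wnt7acre.

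Alox15 rose in ePRAoe by 1.46 on the log2 scale (SE 0.35, 2.75-fold, 95% interval 1.56 to 4.85, adjusted p = 0.0306). In this comparison 7.2% of genes were called higher, and 12.6% were higher with no overlap between the libraries. In ePRBoe the log2 difference from Wnt7acre was 0.99 (SE 0.43, 95% interval -0.01 to 2.00, adjusted p = 0.198), which did not pass. Between ePRBoe and ePRAoe it was -0.47 (95% interval -1.47 to 0.54, adjusted p = 0.582), so the isoforms were not shown to differ, and the interval spans both no difference and a fall of more than 1 log2 unit. The libraries of these 2 genotypes nevertheless did not overlap, as for 22.6% of all genes in either direction.

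Hdc was among the most abundant transcripts in every library. It stood at 516, 495 and 620.2 FPKM in ePRBoe replicates 1 to 3, 588, 786 and 548 FPKM in ePRAoe, and 467, 207 and 325 in Wnt7acre. All 6 overexpressing libraries were above the 3 Wnt7acre libraries, by a narrow margin over Wnt7acre replicate 1. Hdc rose in ePRAoe by 1.00 (SE 0.24, 2.00-fold, 95% interval 1.36 to 2.96, adjusted p = 0.0308). In ePRBoe the difference from Wnt7acre was 0.60 (SE 0.30, 95% interval -0.09 to 1.29, adjusted p = 0.256) and did not pass, although all ePRBoe libraries were above all Wnt7acre libraries, as for 23.5% of all genes tested. Between ePRBoe and ePRAoe the log2 difference was -0.40 (95% interval -1.09 to 0.29, adjusted p = 0.487).

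Acod1 was at 87.6, 82.9 and 165 FPKM in ePRBoe replicates 1 to 3, 119.8, 254 and 242 FPKM in ePRAoe, and 121, 107 and 90.02 in Wnt7acre. ePRAoe replicates 2 and 3 stood above all other libraries, and ePRAoe replicate 1 lay among the Wnt7acre values. The 3 comparisons all missed the threshold. The log2 difference was 0.88 between ePRAoe and Wnt7acre (SE 0.35, 95% interval 0.07 to 1.69, adjusted p = 0.129), -0.07 between ePRBoe and Wnt7acre (95% interval -1.06 to 0.92, adjusted p = 0.941) and -0.95 between ePRBoe and ePRAoe (95% interval -1.94 to 0.04, adjusted p = 0.284). The exact permutation p was 0.1 for Alox15 and Hdc in ePRAoe against Wnt7acre and 0.2 for Acod1.

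**Figure D2:**
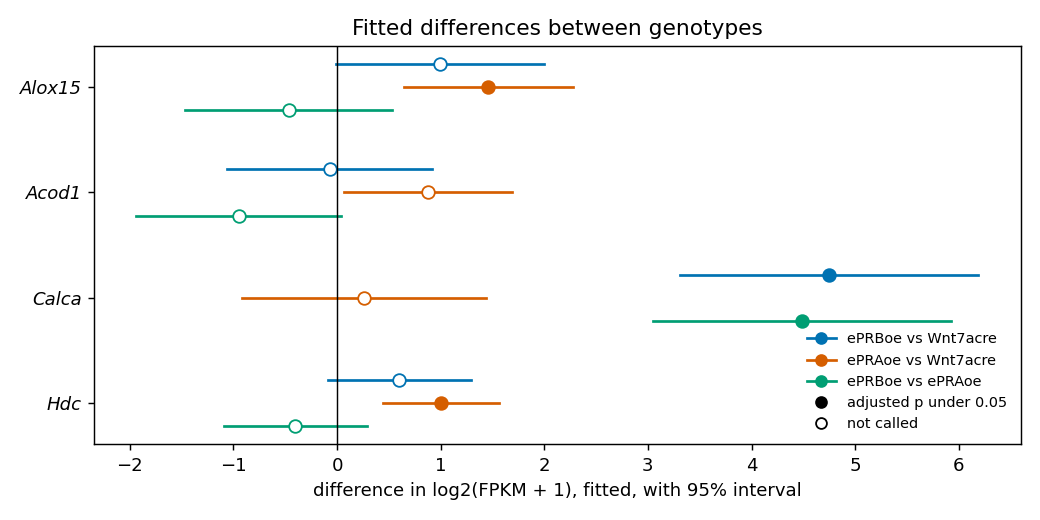
Fitted difference in log2(FPKM + 1) for each gene and comparison, with its 95% interval; filled points had an adjusted p under 0.05. The Calca difference from Wnt7acre is set by the pseudocount of 1, since Wnt7acre was listed at 0, and is not a fold change.

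Counted over the members, 2 of 4 were called higher in ePRAoe (Alox15 and Hdc), 1 of 4 in ePRBoe against Wnt7acre and 1 of 4 in ePRBoe against ePRAoe (Calca in both). None was called lower. Calca passed the filter only through its ePRBoe libraries, so its 2 calls are not read against the shares of all genes. Of the 12347 genes tested, 8.89% were called in ePRBoe against Wnt7acre (6.41% higher and 2.48% lower), 16.2% in ePRAoe against Wnt7acre (7.2% higher and 8.98% lower) and 0.324% in ePRBoe against ePRAoe (0.316% higher and 0.0081% lower). Libraries did not overlap in either direction for 39.8%, 28.9% and 22.6% of genes in these comparisons, and were all higher for 23.5%, 12.6% and 16.8%. The 3 comparisons share libraries, so their values are set side by side and are not independent. The median of all genes tested was 0.10 in ePRBoe against Wnt7acre, -0.03 in ePRAoe against Wnt7acre and 0.15 in ePRBoe against ePRAoe on the same log2 scale. Median-of-ratios factors moved these medians by -0.13, 0.04 and -0.17, and quantile normalization by -0.13, 0.06 and -0.18, and the sign of every called member difference stayed the same under both.

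The differences of ePRAoe from Wnt7acre were also taken within each sequencing run. Each run held 1 ePRAoe and 1 Wnt7acre library, so a difference between runs cannot be told apart from one between libraries. For Alox15 the log2 difference between the single ePRAoe and the single Wnt7acre library of a run was 1.77 in run 1, 2.33 in run 2 and 0.28 in run 3. For Hdc these differences were 1.27, 1.40 and 0.33, and for Acod1 they were 1.49, 1.17 and -0.02. Run 3 thus gave the smallest difference for all 3 genes, which were read from the same pair of libraries. It holds Wnt7acre replicate 1, the library with raised neutrophil and macrophage markers, and the part of that library's makeup in its levels was not tested. Within run 1, where all ePRBoe libraries stand beside Wnt7acre replicate 3, the ePRBoe difference was 1.15 for Alox15, 0.74 for Hdc and 0.24 for Acod1.

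**Figure D3:**
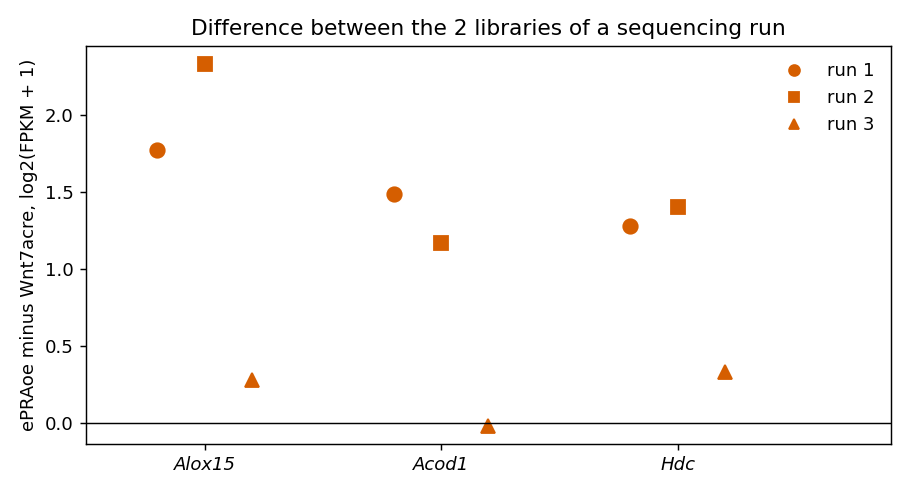
Difference in log2(FPKM + 1) between the ePRAoe and the Wnt7acre library of the same sequencing run, for Alox15, Acod1 and Hdc. Run 3 (triangles) lies lowest for each gene, at 0.28, -0.02 and 0.33.

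Single libraries decided these calls. Without Wnt7acre replicate 1 or ePRAoe replicate 1, the pair of run 3, Alox15 was also called in ePRBoe (1.29, adjusted p = 0.0201 and 0.0196), and Acod1 was called in ePRAoe (1.33, adjusted p = 0.0347 and 0.0345). Without Wnt7acre replicate 2 or 3, ePRAoe replicate 2 or 3, or ePRBoe replicate 1 or 2, the calls of Alox15 (adjusted p = 0.0516 to 0.150) and Hdc (0.0526 to 0.154) in ePRAoe were lost. When 1 library of run 2 or run 3 is left out, its partner alone defines that run in the fit and adds nothing to the comparison.

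Around Alox15 stand the other lipoxygenases and the enzymes that release or use arachidonic acid. Of 22 such genes 17 were in the table and 13 were tested. In ePRAoe 5 rose and 0 fell, and in ePRBoe 2 rose and 0 fell, with median log2 differences of 0.55 and 0.50. Over all genes tested 16.2% were called in ePRAoe and 8.89% in ePRBoe, with medians of -0.03 and 0.10. Alox12e and Alox12, lipoxygenase genes 21523 and 88798 bases from Alox15 on chromosome 11, were called higher in ePRAoe as well. Alox12 averaged 11.9 ± 2.65 FPKM in ePRBoe, 23.4 ± 2.76 in ePRAoe and 14.7 ± 4.94 in Wnt7acre, and rose by 0.68 in ePRAoe (adjusted p = 0.0471). Alox12e averaged 148 ± 6.35 FPKM in ePRBoe, 147 ± 35.5 in ePRAoe and 103 ± 37.0 in Wnt7acre (SD, n = 3 each), and it rose by 0.55 in ePRAoe (adjusted p = 0.0366) but did not pass in ePRBoe (0.50, adjusted p = 0.117). How reads shared by these related genes were counted is not stated.

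Pla2g10, a secreted phospholipase that frees fatty acids, averaged 153 ± 26.6 FPKM in ePRBoe, 93.7 ± 15.8 in ePRAoe and 23.3 ± 16.9 in Wnt7acre. It rose in both, by 2.78 in ePRBoe (adjusted p = 0.0148) and by 2.32 in ePRAoe (adjusted p = 0.00868). Pla2g4a, the cytosolic phospholipase that frees arachidonic acid, rose in ePRAoe (1.13, adjusted p = 0.00527) and not in ePRBoe (0.20, adjusted p = 0.588), and the difference between the isoforms was -0.94 (adjusted p = 0.0927). Ptgs2, cyclooxygenase, rose in ePRAoe (2.83, adjusted p = 0.0188) with 7.35, 99.4 and 68.6 FPKM in replicates 1 to 3, against 3.22, 4.84 and 5.59 in Wnt7acre. Hpgd, which breaks down prostaglandins, rose in ePRBoe (1.36, adjusted p = 0.0397). Neither Alox12e (-0.05, adjusted p = 0.896) nor Ptgs1 (0.20, adjusted p = 0.880) passed between ePRBoe and ePRAoe. Without Wnt7acre replicate 2 or 3 or ePRAoe replicate 2 or 3, only 2 of these genes, Pla2g4a and Pla2g10, were still called in ePRAoe. With each of the 9 libraries left out in turn, the ePRAoe call held in 2 fits for Alox12e and in 5 for Ptgs2. The ePRBoe call held in 2 fits for Hpgd and in 7 for Pla2g10. In ePRBoe the count lay between 0 and 4 when a library was left out, with 0 without Wnt7acre replicate 3 or ePRAoe replicate 2, 1 without any other library of runs 1 and 2, and 4 without Wnt7acre replicate 1 or ePRAoe replicate 1.

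Around Acod1, 25 genes of the citrate cycle, its carriers and proteins that itaconate is known to act on were all tested. In ePRAoe 1 rose and 4 fell, and in ePRBoe 2 rose and 0 fell, with medians of -0.11 and 0.06. These counts, 5 of 25 and 2 of 25, lie near the 16.2% and 8.89% called among all genes tested. Idh2, the mitochondrial isocitrate dehydrogenase, averaged 37.6 ± 8.47 FPKM in ePRBoe, 19.7 ± 7.14 in ePRAoe and 58.4 ± 3.25 in Wnt7acre, and fell by 1.57 on the log2 scale in ePRAoe (adjusted p = 0.00400). Sdhd, a subunit of succinate dehydrogenase, an enzyme that itaconate inhibits, fell by 0.64 in ePRAoe (adjusted p = 0.0208), and Nfe2l2, a transcription factor that itaconate activates, fell by 0.67 (adjusted p = 0.0406). Slc25a1, the mitochondrial citrate carrier, rose by 0.68 in ePRAoe (adjusted p = 0.0485). In ePRBoe, Idh1, the cytosolic isocitrate dehydrogenase, rose by 1.75 (8.55 ± 1.06 FPKM in ePRBoe and 3.41 ± 2.02 in Wnt7acre, adjusted p = 0.0126), and Clybl, which takes part in itaconate breakdown, rose by 0.76 (adjusted p = 0.0459). The Idh1 value of 1.75 is fitted with the run term, and without any fit the group means of log2(FPKM + 1) differed by 1.20. Mdh2 (0.12, adjusted p = 0.752) and Cs (-0.24, adjusted p = 0.5), the 2 most abundant genes of the list, did not pass between ePRBoe and ePRAoe. Of these calls, only that of Idh2 held with any 1 library left out, and the count in ePRAoe lay between 1 and 8 and that in ePRBoe between 0 and 3. The markers of macrophages, the cells in which Acod1 is best known, summed to 326 to 377 FPKM in ePRBoe, 140 to 217 in ePRAoe and 181 to 391 in Wnt7acre. In ePRAoe replicates 2 and 3, the libraries with most Acod1, they summed to 149.7 and 139.7, and the part of macrophages in the Acod1 values was not tested.

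Around Calca, 14 other ligands, receptors and processing enzymes were listed, and the 9 in the table were tested. In ePRBoe 3 rose and 0 fell, and in ePRAoe 1 rose and 1 fell, with medians of 1.31 and 0.60. The shares called over all genes tested were 8.89% and 16.2%, and the medians 0.10 and -0.03. Ramp1 and Ramp2 are the membrane partners that give the receptor Calcrl its preference for gene-related peptide or adrenomedullin. Ramp2 averaged 14.7 ± 2.79 FPKM in ePRBoe, 6.68 ± 2.44 in ePRAoe and 3.60 ± 1.54 in Wnt7acre, and rose by 1.70 in ePRBoe (adjusted p = 0.0100) and by 0.76 in ePRAoe (adjusted p = 0.0427). Ramp1 averaged 2.69 ± 0.692 FPKM in ePRBoe and 0.453 ± 0.190 in Wnt7acre, and rose by 1.42 (adjusted p = 0.0183). Calcrl itself did not pass in ePRBoe (1.31, adjusted p = 0.0605); it is named with its partners although its values had been seen. Cpe, a carboxypeptidase of peptide hormone maturation, rose by 2.04 in ePRBoe (adjusted p = 0.0162), and Crcp, a receptor component of the same pathway, fell by 0.47 in ePRAoe (adjusted p = 0.0431). Pam (-0.21, adjusted p = 0.581) and Crcp (0.25, adjusted p = 0.407) did not pass between ePRBoe and ePRAoe. The 9 endothelium markers, of the vessel cells known to carry Calcrl and Ramp2, summed to 51.2 to 76.5 FPKM in ePRBoe, 16.5 to 34.4 in ePRAoe and 15.3 to 22.8 in Wnt7acre. These and the stroma markers were higher in ePRBoe than in Wnt7acre, as were the 3 genes called there. In ePRAoe 0 of 7 tested endothelium markers were called, with a median log2 difference of 0.03, while 12 of 18 stroma markers rose. The part of these cells was not tested. The count of 3 in ePRBoe fell to 1 without ePRAoe replicate 2 or ePRBoe replicate 2 and to 2 without Wnt7acre replicate 3 or ePRBoe replicate 3, and in ePRAoe the call of Crcp was lost with any 1 of the 9 libraries left out and that of Ramp2 with any but Wnt7acre replicate 3.

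Around Hdc, 16 genes of histamine and histidine metabolism were listed, of which 11 were in the table and 8 were tested. In ePRBoe 0 rose and 1 fell, and in ePRAoe 0 rose and 1 fell, the same gene in both, and with 1 library left out the counts were 1 to 2 and 1 to 3. These counts, 1 of 8 in each genotype, lie near the 8.89% and 16.2% called among all genes tested. The gene that fell was Hal, histidine ammonia-lyase, which breaks down the amino acid that Hdc uses. Hal was at 1.01, 0.219 and 0.685 FPKM in ePRBoe, 0.137, 0.027 and 0.602 FPKM in ePRAoe, and 12.7, 42.9 and 27.1 in Wnt7acre. All 6 overexpressing libraries were thus far below the Wnt7acre libraries. It fell by 3.93 in ePRBoe (adjusted p = 0.00309) and by 4.38 in ePRAoe (adjusted p = 0.00105), and both calls held with any 1 library left out. Maob, an amine oxidase, did not pass in ePRBoe (0.88, adjusted p = 0.0805), in ePRAoe (0.06, adjusted p = 0.886) or between the isoforms (0.82, adjusted p = 0.172). Slc7a5, an amino acid importer that carries histidine, did not pass either (-0.37, adjusted p = 0.591 in ePRBoe; -0.92, adjusted p = 0.0834 in ePRAoe; 0.55, adjusted p = 0.455 between them). Hrh2, a histamine receptor, was at 0.051 to 0.243 FPKM in all 9 libraries and was not tested. Hdc is also a gene of mast cells and basophils. Of 12 markers of those cells only Kit had a row, at 21.9 to 27.0 FPKM in ePRBoe, 5.37 to 30.2 in ePRAoe and 4.61 to 43.9 in Wnt7acre. Eosinophils can express Alox15. Of 9 eosinophil markers only 2 had a row, and these summed to at most 0.265 FPKM in ePRBoe, 0.0300 in ePRAoe and 0.692 in Wnt7acre. The part of these cell types in the Hdc and Alox15 values was not tested.

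**Figure D4:**
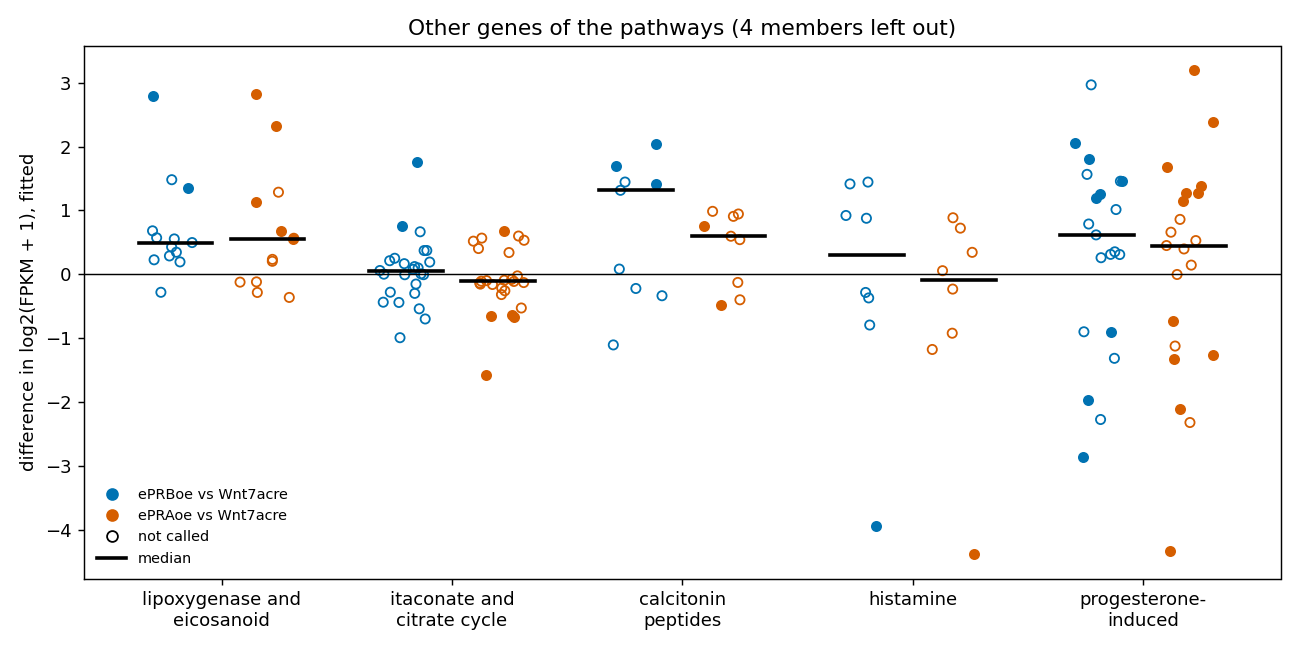
Fitted differences in log2(FPKM + 1) from Wnt7acre for the tested genes of 5 lists, without the 4 members, for ePRBoe (blue) and ePRAoe (orange). Filled points had an adjusted p under 0.05 and bars are medians; Hal is the lowest point of the histamine list in both genotypes.

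Other genes known to be induced by progesterone in uterine epithelium did not move as 1 group. Of 24 such genes besides the members, 23 were in the table and 21 were tested. In ePRBoe 5 rose and 3 fell, and in ePRAoe 7 rose and 5 fell, with medians of 0.62 and 0.45. Among all genes tested 8.89% were called in ePRBoe and 16.2% in ePRAoe, with medians of 0.10 and -0.03. Gata2, a transcription factor of the progesterone response, averaged 145 ± 19.3 FPKM in ePRBoe, 131 ± 49.5 in ePRAoe and 41.1 ± 17.4 in Wnt7acre, and rose in both (1.80, adjusted p = 0.00643; 1.68, adjusted p = 0.00219). Hsd11b2, which inactivates corticosterone, rose in both (2.06, adjusted p = 0.00494 in ePRBoe; 1.39, adjusted p = 0.00444 in ePRAoe), and Fkbp5, a co-chaperone of steroid receptors, rose in ePRBoe (1.26, adjusted p = 0.0100). Anxa8, a membrane-binding annexin, fell in both (-1.96, adjusted p = 0.0127 in ePRBoe; -2.10, adjusted p = 0.00356 in ePRAoe). Atp6v0d2, a proton pump subunit, averaged 85.3 ± 23.4 FPKM in ePRBoe, 45.1 ± 49.1 in ePRAoe and 530 ± 149 in Wnt7acre, and fell by 2.86 in ePRBoe (adjusted p = 0.0417) and by 4.33 in ePRAoe (adjusted p = 0.00383). Npl (-0.82, adjusted p = 0.352) and Cyp26a1 (0.05, adjusted p = 0.982) did not pass between ePRBoe and ePRAoe. The ePRBoe count was 2 risen and 0 fallen without Wnt7acre replicate 3 and 9 and 5 without Wnt7acre replicate 1 or ePRAoe replicate 1; it was 4 and 1 without ePRAoe replicate 2 or ePRBoe replicate 2. The ePRAoe count was 4 and 2 without Wnt7acre replicate 3 or ePRAoe replicate 2 and 5 and 3 without Wnt7acre replicate 2 or ePRAoe replicate 3.

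In none of the 5 pathway lists was a gene other than a member called between ePRBoe and ePRAoe (limma, 0 of 13, 25, 9, 8 and 21). Over all genes tested the share called in this comparison was 0.324%, so counts of 0 in lists of this size say little. At an unadjusted p under 0.05 the counts were 5, 4, 3, 2 and 4. Without Wnt7acre replicate 1 the eicosanoid list had 3 genes called lower in ePRBoe and the citrate cycle list 1 called higher, and without ePRAoe replicate 1 the counts were 2 and 1.

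**Figure D5:**
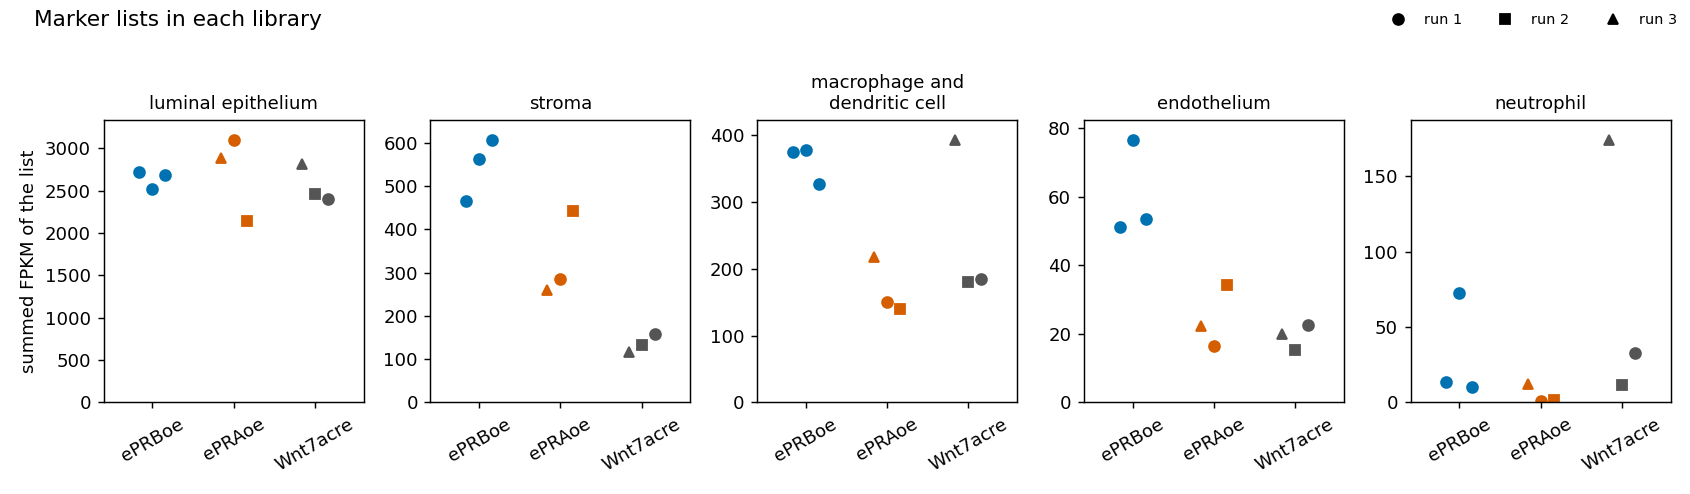
Summed FPKM of 5 marker lists in each library, by genotype, with symbols for the sequencing run. Stroma and endothelium sums were highest in ePRBoe, and the neutrophil sum of 174 FPKM belongs to Wnt7acre replicate 1.

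The members' patterns over the 9 libraries were compared with those of all tested genes by the mean absolute difference between log2(FPKM + 1) values, each gene centred on its own mean, so that small values mean like patterns. Alox15 and Hdc differed from each other by 0.25, Alox15 and Acod1 by 0.50 and Hdc and Acod1 by 0.42, and Calca differed from the other members by 1.92 to 2.23. The libraries share depth scaling and runs, and the values are given as a description. Closest to Alox15 were Ikzf2 (0.16), Sox17 (0.18), Klhl12 (0.18), Dock9 (0.18) and Terf1 (0.18). Ikzf2, a zinc finger transcription factor, averaged 10.6 FPKM in ePRBoe, 16.8 in ePRAoe and 5.48 in Wnt7acre. Closest to Hdc were Metap1 (0.07), Galnt1 (0.09), Tmsb4x (0.10), Hsdl2 (0.12) and Ttc8 (0.13). Metap1, which trims the first methionine from proteins, stood at 84.3 to 104 FPKM in ePRBoe, 87.6 to 156 in ePRAoe and 34.8 to 71.9 in Wnt7acre.

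Closest to Acod1 were Ldha (0.16), Fam83c (0.20), Plp2 (0.20), Orc6 (0.21) and Tapt1 (0.21). Ldha, lactate dehydrogenase, stood at 195, 153 and 267 FPKM in ePRBoe, 249 to 419 in ePRAoe and 188 to 223 in Wnt7acre, with ePRAoe replicates 2 and 3 highest, as for Acod1. Among the genes closest to Calca, at larger distances, were Ptgds (0.69), Pate4 (0.93), Spint3 (0.94) and Lancl3 (0.96). Ptgds, a prostaglandin D synthase, was at 13.7, 36.4 and 6.89 FPKM in ePRBoe, 2.65, 0.661 and 0.472 in ePRAoe, and 0.378, 1.89 and 0.661 in Wnt7acre. In Ptgds, ePRBoe replicate 3 was the lowest of its genotype, as it was for Calca, and every ePRBoe library was above all others. Replicate 2 was the highest for Ptgds, and replicate 1 for Calca. Ptgds and Ldha were picked for their likeness to a member, so the features they share with it follow from that choice and are not support.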

How the data were processed

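The deposited values are FPKM, a count scaled by the authors to gene length and depth, per the file headers, for 15158 genes in 9 libraries. The submitters' processing notes name the build mm10 and the tools STAR 2.5.2b, featureCounts 1.5.0-p1 (Subread), edgeR 3.28.0 and limma 3.42.2. For gene lengths, annotation and strand setting nothing is given in the sources used. The table holds no counts, so no counting intervals are given.

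Values were transformed as log2(FPKM + 1), and fold changes are on that scale, which understates changes of low genes. A gene was tested if 3 or more libraries reached 1 FPKM, which kept 12347 genes and dropped 2811. All 9 libraries entered one fit in limma 3.58.1 (R 4.3.3), with terms for genotype and for the sequencing run read from the labels (4 residual and 3.64 prior degrees of freedom, variance trend), with two-sided tests, Benjamini-Hochberg adjustment over all genes tested and a threshold of 0.05. Intervals are 95% intervals of that fit. The runs in it were inferred from a shared prefix and date stamp in the sample descriptions. Beside the fit stand exact permutation tests over 20 regroupings.

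The members and lists were chosen with earlier results of these data known. Named were the 4 members, Pgr as the targeted gene, up to 4 called genes with the largest t per list and comparison (where fewer than 2 were called, the 2 with the highest mean), and the 5 genes with the likest pattern per member, of which 1 is not reported here, while marker lists are given as sums; Alox12, Calcrl, Hrh2, Foxa2 and Prss29 were added after their values were seen. Fixed alternatives were 2 other pseudocounts, 2 other filters, 3 other scalings, 3 other sets of terms, fits of 2 genotypes and leaving out each library.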

Additional observations from a re-analysis of the deposited data

Results flagged for a closer look

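Calca differed between the isoforms: it was at 53.0, 29.3 and 10.2 FPKM in ePRBoe and at 0.302, 0.151 and 0.151 in ePRAoe, both set against the same Wnt7acre libraries, in which it was listed at 0. It was brought forward because the test of ePRBoe against ePRAoe itself passed (limma, adjusted p = 0.0390, higher in 3 of 3 libraries). Calca was in that test only because it passed the filter through the same 3 ePRBoe libraries, and with no filter the adjusted p was 0.0541, so the pass is given as a description. Over 11 other settings that adjusted p lay between 0.0153 and 0.246 and passed in 4.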

How the results depend on the processing

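For the members the values here are limma's adjusted p, and the cause of a lost or gained call was not tested. Calca in ePRBoe against Wnt7acre passed under all 11 other settings (0.00123 to 0.0371). It lay between 0.0110 and 0.0805 with 1 Wnt7acre or ePRAoe library left out. Its call against ePRAoe was lost with a pseudocount of 5 (0.0937), no filter (0.0541), a mean of at least 5 FPKM (0.0573), median-of-ratios factors (0.0516), quantile normalization (0.0703) and only the 2 groups compared (0.0501), and lay between 0.0334 and 0.5004 with 1 Wnt7acre or ePRAoe library left out. Without an ePRBoe library Calca missed the filter, so those 3 fits were run with no filter, a choice made after the data were seen. Without replicates 1, 2 and 3 they gave 0.163, 0.172 and 0.0114 against ePRAoe and 0.0201, 0.0394 and 0.0120 against Wnt7acre. Alox15 in ePRAoe lost the call with only the 2 groups compared (0.0735) and lay between 0.00259 and 0.150 with 1 library left out. In ePRBoe it gained the call with only the 2 groups compared (0.0357), between 0.0196 and 0.641 with 1 library left out. Hdc in ePRAoe lost the call without the run term (0.0540) and with only the 2 groups compared (0.0899), and lay between 0.00769 and 0.154 with 1 library left out. Acod1 in ePRAoe passed under none of the 11 other settings and lay between 0.0345 and 0.433 with 1 library left out. Its ePRBoe difference from Wnt7acre, near 0, changed sign without the run term (0.989), with the replicate block in place of the run term (0.989) or beside it (0.963) and with only the 2 groups compared (0.736), and lay between 0.605 and 0.954 with 1 library left out. The other comparisons of members kept their direction and their side of the threshold under every setting run.

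Replicate numbers did not pair the libraries: deviations from the group means of same-numbered libraries correlated across genes at -0.23 to 0.171. With the replicate block in place of the run term, the adjusted p was 0.0637 for Alox15 and 0.0955 for Hdc in ePRAoe; with the block beside the run term it was 0.102 and 0.130, and 0.246 for Calca between ePRBoe and ePRAoe. The block in place of the run term left 1113 genes called in ePRAoe and 4 between the isoforms, and beside it 917 and 0, with 282 in ePRBoe.

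Over all genes, 1098 were called in ePRBoe, 1998 in ePRAoe and 40 between the isoforms. With 1 library left out these counts ranged from 231 to 1604, from 723 to 2705 and from 0 to 576. The ePRBoe count was 653 with a mean of at least 5 FPKM and 1786 without the run term, and its share of higher calls was 72.1%, against 56.4% with median-of-ratios factors and 55.7% with quantile normalization. The ePRAoe count was 1116 with only the 2 groups compared. Between the isoforms the count was 19 without a filter, 22 with median-of-ratios factors, 15 with quantile normalization, 25 with TPM, 7 without the run term and 585 with only the 2 groups compared. The depth of the libraries is unknown, and levels such as Calca in ePRAoe cannot be told from a few reads.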
